A study of Mus musculus with 2 samples.

Results

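The genes described here are 6 S100 genes (S100a1, S100a4, S100a6, S100a10, S100a11 and S100a13) and 4 annexin genes (Anxa1, Anxa2, Anxa3 and Anxa5), chosen by name, with every probe set that the platform annotation assigned to one of them and to no other gene. Of these 10 genes, 9 had such a probe set, as did 18193 genes in all. S100a11 is listed only on a probe set shared with other loci, so no value is given for it. RNA came from bEnd3 cells, an endothelial line from brain microvessels of a BALB/c mouse that was transformed with polyoma middle T antigen. One group carried a retrovirus for Smad4-siRNA and the other a retrovirus for Control-siRNA. Both were selected with puromycin and kept in serum-containing medium. RNA pooled from 2 infections gave 1 Affymetrix array per group, and the comparison asks how transcripts differ when the siRNA is directed at Smad4, the shared Smad of TGF-β and BMP signalling.

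S100 proteins are small calcium sensors with paired EF-hand loops, most of which open a binding surface for target proteins when calcium rises. Annexins bind acidic membrane lipids in the presence of calcium, and their unequal amino-terminal tails are docking sites, several of them for S100 proteins. On the endothelial surface, the complex of S100a10 with Anxa2 is known as a docking site for plasminogen and tissue plasminogen activator, and Anxa1 is known as a brake on leukocyte entry and a support of brain endothelial junctions.

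The arrays differed in ways that touch every result below. The targeted transcript was not lower in the sample labelled Smad4-siRNA, where the 3 Smad4 probe sets had signals of 1165, 817 and 722, against 916, 545 and 607 in the Control-siRNA sample. Smad4 log2 ratios, here always Smad4-siRNA minus Control-siRNA, lay between 0.25 and 0.58. They lay between -0.12 and 0.21 in the values as deposited. Xist, expressed from an inactive X chromosome, gave a signal of 4476 in the sample labelled Smad4-siRNA and of 20.7 in the Control-siRNA sample, while the Y-linked Eif2s3y gave 0.349 in the sample labelled Smad4-siRNA, against 324 in the Control-siRNA sample. Of 12 endothelial markers, which all reached the floor in the Control-siRNA sample, 11 were lower by 2-fold or more, with summed signals of 749.7 in the sample labelled Smad4-siRNA and 19856 in the Control-siRNA sample. None was at 0, but Pecam1, Tek, Tie1, Emcn, Cldn5 and Esam lay under the floor in the sample labelled Smad4-siRNA. Of 8 fibroblast markers measured, 7 were at least 2-fold higher, with summed signals over the 10 of the list of 20366 in the sample labelled Smad4-siRNA, against 154 in the Control-siRNA sample. Of 8 pericyte and smooth muscle markers, 5 were measured, and 4 of these were at least 2-fold higher. The other, Des, had 13.7, under the floor, in the sample labelled Smad4-siRNA and 36.2 in the Control-siRNA sample. Des was thus at least 1.59-fold lower. Rgs5, Myh11 and Cnn1 were under the floor on both arrays. The part of these differences in the S100 and annexin values was not tested, and with 1 array per group the siRNA and any other difference between the cultures cannot be told apart. In RNA from whole cultures, fewer cells of a type and less RNA per cell cannot be told apart either.

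Most of the S100 and annexin genes lay within 2-fold between the arrays. All 9 genes were measured on both, that is, with a quantile-normalized signal at or above the floor of 22.8, the median of an array. Of the 9, 1 was at least 2-fold higher (Anxa1), 1 at least 2-fold lower (Anxa3) and 7 lay between. This is 22.2% past 2-fold, against 27.7% of the 9479 genes measured on both arrays, of which 12.6% were higher and 15.0% lower. In numbers, 1195 genes were higher and 1426 lower, and in the values as deposited 1023 were higher and 1957 lower. Among the 7414 of these genes with a mean signal of at least 4 times the floor, the share was 27.2%. The median log2 ratio of the 9 genes was 0.09, and that of all measured genes was -0.15. As deposited these medians were -0.31 and -0.33, so the direction of the first depended on the scaling. The median absolute log2 ratio of the 9 genes was 0.57, and that of all measured genes was 0.58. Neither the number of calls nor the size of the ratios thus set these genes apart from the rest of the arrays. There were no replicates and no test was made. The spread between different probe sets of a gene, an SD of 0.47 on the log2 ratio pooled over 4546 genes, is the only measured error, and it does not cover the spread between cultures.

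**Figure D1:**
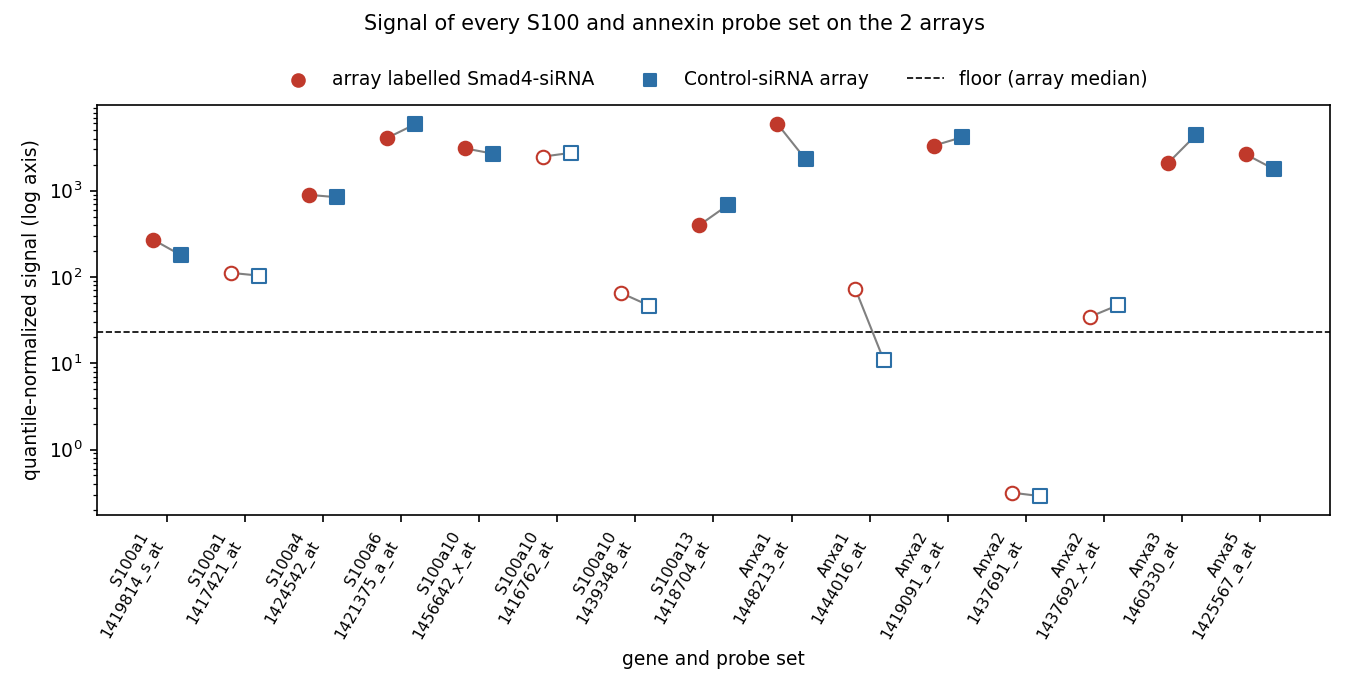
Quantile-normalized signal (log axis) of each of the 15 probe sets of the 9 genes in the sample labelled Smad4-siRNA (red circles, left) and the Control-siRNA sample (blue squares, right). Filled symbols mark the probe set that stands for the gene and the dashed line is the floor of 22.8. Only the points of one probe set can be set against each other, and the steepest lines are those of Anxa1 and Anxa3.

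The annexins held both genes past 2-fold, in opposite directions. Anxa1, an anti-inflammatory ligand of formyl peptide receptors, gave a signal of 5915 in the sample labelled Smad4-siRNA and of 2306 in the Control-siRNA sample in its brighter probe set. It was 2.56-fold higher, a log2 ratio of 1.36, and 780 of the 9479 measured genes had a higher ratio. The other Anxa1 probe set had 71.9 in the sample labelled Smad4-siRNA and 11, under the floor, in the Control-siRNA sample, that is, at least 3.16-fold higher. Both probe sets thus put Anxa1 on the same side of 2-fold. Anxa3, an annexin known from endothelial migration and neutrophil granules, gave a signal of 2061 in the sample labelled Smad4-siRNA and of 4380.3 in the Control-siRNA sample. It was 2.13-fold lower, a log2 ratio of -1.09, and 1233 measured genes had a lower one. It rests on 1 probe set, and its ratio lay at -0.92, inside 2-fold, after removal of a trend on signal.

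Anxa2 and Anxa5 differed less. Anxa5, which covers exposed phosphatidylserine and limits coagulation on it, had 2639 in the sample labelled Smad4-siRNA and 1780.1 in the Control-siRNA sample, a log2 ratio of 0.57 in its 1 probe set. Anxa2, the membrane anchor of S100a10, had 3309.6 in the sample labelled Smad4-siRNA and 4141 in the Control-siRNA sample in its brightest probe set, a log2 ratio of -0.32. A dimmer Anxa2 probe set had 34.3 in the sample labelled Smad4-siRNA and 46.9 in the Control-siRNA sample, a log2 ratio of -0.45, and the third was under the floor on both arrays. Over the Anxa2 probe sets measured on both arrays the log2 ratio was -0.39 ± 0.09 (SD, n = 2 probe sets). In the quantile-normalized values, the Anxa2 ratio is smaller than the pooled SD of 0.47 between probe sets, and that of Anxa5 is slightly larger. As deposited this order reversed, with ratios of -0.50 for Anxa2 and 0.28 for Anxa5. With median centring both were smaller than this SD, at -0.37 for Anxa2 and 0.40 for Anxa5.

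None of the 5 S100 genes measured reached 2-fold. S100a10, which does not need calcium to bind Anxa2, had 3079.8 in the sample labelled Smad4-siRNA and 2672 in the Control-siRNA sample in its brightest probe set. The second probe set had 2481 in the sample labelled Smad4-siRNA, against 2743 in the Control-siRNA sample, and the third 64.8 in the sample labelled Smad4-siRNA, against 46.3 in the Control-siRNA sample. The log2 ratios of these S100a10 probe sets were 0.21, -0.15 and 0.48, with a mean of 0.18 ± 0.32 (SD, n = 3 probe sets), so the probe sets did not give one direction. Transcripts of the partners S100a10 and Anxa2 both stayed within 2-fold. S100a4, a binder of non-muscle myosin linked to motility and often used as a fibroblast marker, had 893 in the sample labelled Smad4-siRNA and 837 in the Control-siRNA sample. Its log2 ratio of 0.09 was -0.31 in the values as deposited, so its direction depended on the scaling. In those values S100a4 lay close to the median of all measured genes. S100a4 thus stayed near equal on arrays where 7 of 8 measured fibroblast markers were at least 2-fold higher.

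S100a6 and S100a13 were on the lower side and S100a1 on the higher side. S100a6, calcyclin, which is linked to proliferating cells, had 4086 in the sample labelled Smad4-siRNA and 5891 in the Control-siRNA sample, a log2 ratio of -0.53. S100a13, which takes part in the release of the signal-peptide-free factors FGF1 and interleukin-1α, had 398 in the sample labelled Smad4-siRNA and 676 in the Control-siRNA sample, a log2 ratio of -0.76. As deposited, the S100a13 ratio was -1.14, past 2-fold. S100a1, known as a calcium regulator of heart muscle, had 269.7 in the sample labelled Smad4-siRNA and 178 in the Control-siRNA sample in its brighter probe set. The other had 111 in the sample labelled Smad4-siRNA, against 103 in the Control-siRNA sample. The S100a1 log2 ratios were 0.60 and 0.11, a mean of 0.35 ± 0.35 (SD, n = 2 probe sets). Both S100a1 probe sets were above 0, but the size of the difference depended on which was read.

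**Figure D2:**
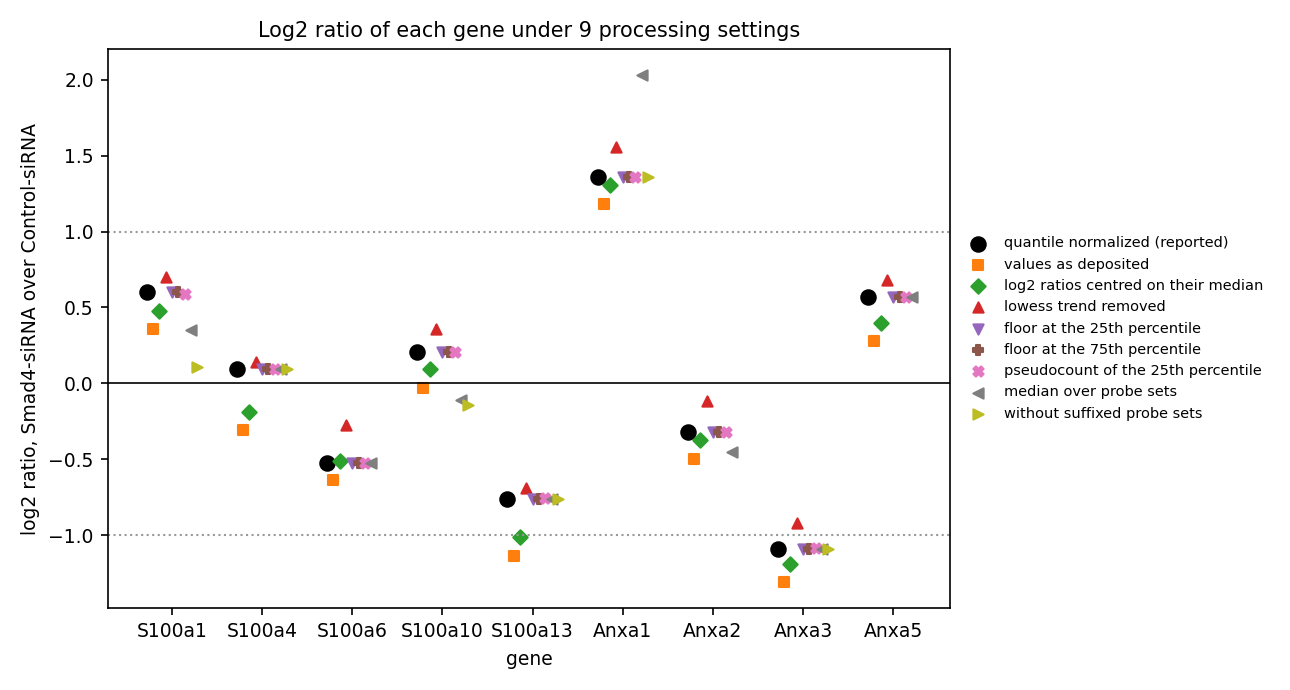
Log2 ratio of each gene, Smad4-siRNA over Control-siRNA, under the reported quantile normalization (black) and 8 other settings (coloured symbols). Dotted lines mark 2-fold. Anxa1 lies between 1.18 and 2.03 and Anxa3 between -1.31 and -0.92, while S100a4 and S100a10 cross 0.

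The RefSeq table of promoter windows (GRCm38.p6) held an entry for 8 of the 10 genes, all but S100a10 and Anxa3. The 250 bases upstream of each start were read. The windows thus leave out Anxa3, the gene past 2-fold on the lower side, and include S100a11, which has no signal value. Anxa1, the gene highest in ratio, is shown first with Anxa2 and S100a4, which stayed within 2-fold. Their windows also hold TATAAA, in Anxa2 at a different distance from the start. Capitals mark 4 motifs, each searched on both strands. The TATA element was read as TATAAA. The GC box, a site of general activators, was read as GGGCGG. The AP-1 element, bound by Fos and Jun, was read as TGANTCA. A short element that Smad proteins can bind was read as CAGAC.
Anxa1, chr19:20390672-20390921, minus strand: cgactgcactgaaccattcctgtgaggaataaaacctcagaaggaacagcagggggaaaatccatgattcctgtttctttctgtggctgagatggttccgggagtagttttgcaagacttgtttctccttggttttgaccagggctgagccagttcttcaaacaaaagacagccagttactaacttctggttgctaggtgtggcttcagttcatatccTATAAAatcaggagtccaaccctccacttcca
Anxa2, chr9:69453433-69453682, plus strand: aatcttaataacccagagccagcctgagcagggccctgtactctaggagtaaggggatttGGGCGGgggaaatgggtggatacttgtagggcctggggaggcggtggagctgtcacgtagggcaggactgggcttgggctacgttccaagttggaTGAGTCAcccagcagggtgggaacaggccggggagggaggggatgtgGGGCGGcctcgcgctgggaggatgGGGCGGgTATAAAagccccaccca
S100a4, chr3:90603520-90603769, plus strand: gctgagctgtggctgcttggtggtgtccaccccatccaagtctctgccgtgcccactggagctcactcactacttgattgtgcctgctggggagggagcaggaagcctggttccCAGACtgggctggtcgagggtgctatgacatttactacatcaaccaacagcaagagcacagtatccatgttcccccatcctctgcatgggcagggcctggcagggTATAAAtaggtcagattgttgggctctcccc
TATAAA began 32 bases upstream of the start in Anxa1, 31 in S100a4 and 17 in Anxa2, 3 of the 8 windows, whereas 12.4% of 32851 windows of the table hold it. The Anxa2 window also held 3 GC boxes, found in 2 of the 8 windows and in 32.7% of all, and 1 AP-1 element, found in 2 of the 8 and in 6.75% of all. CAGAC was in 3 of the 8 windows (S100a4, S100a6 and Anxa5) and in 42.2% of all. The palindromic Smad element GTCTAGAC was in 0 of the 8 and in 0.167% of all. No match overlapped another. The windows with TATAAA belonged to genes with log2 ratios of 1.36 (Anxa1), 0.09 (S100a4) and -0.32 (Anxa2). As deposited, the S100a4 ratio was -0.31 and the Anxa2 ratio -0.50. The quantile-normalized Anxa2 ratio is smaller than the pooled SD of 0.47 between probe sets. A relation between the element and the ratios was not tested.

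S100a1 and S100a13 lie back to back on chromosome 3. In the promoter table their starts are divided by the 104 bases shown here on the strand of S100a13, since both genes are transcribed away from this stretch. None of the motifs above was found in it.
S100a1 to S100a13, chr3:90514331-90514434, plus strand: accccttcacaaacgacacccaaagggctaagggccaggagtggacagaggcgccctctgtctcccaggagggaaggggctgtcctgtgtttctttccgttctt
Across this stretch the ratios had opposite signs, with log2 ratios of 0.60 and 0.11 for the S100a1 probe sets and -0.76 for S100a13. As deposited, the ratios of the S100a1 probe sets were 0.36 in the brighter and 0.06 in the other, and that of S100a13 was -1.14. The difference between these neighbours was not tested, since the spread between cultures was not measured.

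All 6 S100 genes lie on chromosome 3, in 2 runs. In the RefSeq gene order, the run from S100a1 to S100a6 also holds S100a14, S100a16, S100a3, S100a2 and S100a5. S100a14 and S100a5 were under the floor on both arrays, and S100a2 had no probe set of its own here. S100a3, known from hair cuticle, had 7.88, under the floor, in the sample labelled Smad4-siRNA and 56.5 in the Control-siRNA sample, that is, at least 2.48-fold lower. S100a16, an S100 protein of wide expression, had 412 in the sample labelled Smad4-siRNA and 541 in the Control-siRNA sample, a log2 ratio of -0.39, and -0.20 in its other probe set. The genes before the run, Ilf2, Snapin and Chtop, had log2 ratios of 0.32, 0.52 and -0.22. Behind it, the leukocyte S100 genes S100a8 and S100a9 were under the floor on both arrays. S100a8 was just under it in the Control-siRNA sample, at 22.3, against 7.78 in the sample labelled Smad4-siRNA. In the quantile-normalized values the run thus held genes on either side of 0. As deposited, the brighter S100a1 probe set had a log2 ratio of 0.36 and the other 0.06. S100a13 (-1.14), S100a16 (-0.75), S100a4 (-0.31) and S100a6 (-0.64) then lay below 0. S100a3, under the floor in the sample labelled Smad4-siRNA, was lower in those values too. A shared shift along the run was not tested. In the second run, S100a11, which has no value, and S100a10 lie side by side. The genes before S100a11 (Rptn, Tchh and Tchhl1) were under the floor on both arrays, and those behind S100a10 were under it (Tdpoz1) or had no probe set of their own (Tdpoz2 and Tdpoz4).

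**Figure D3:**
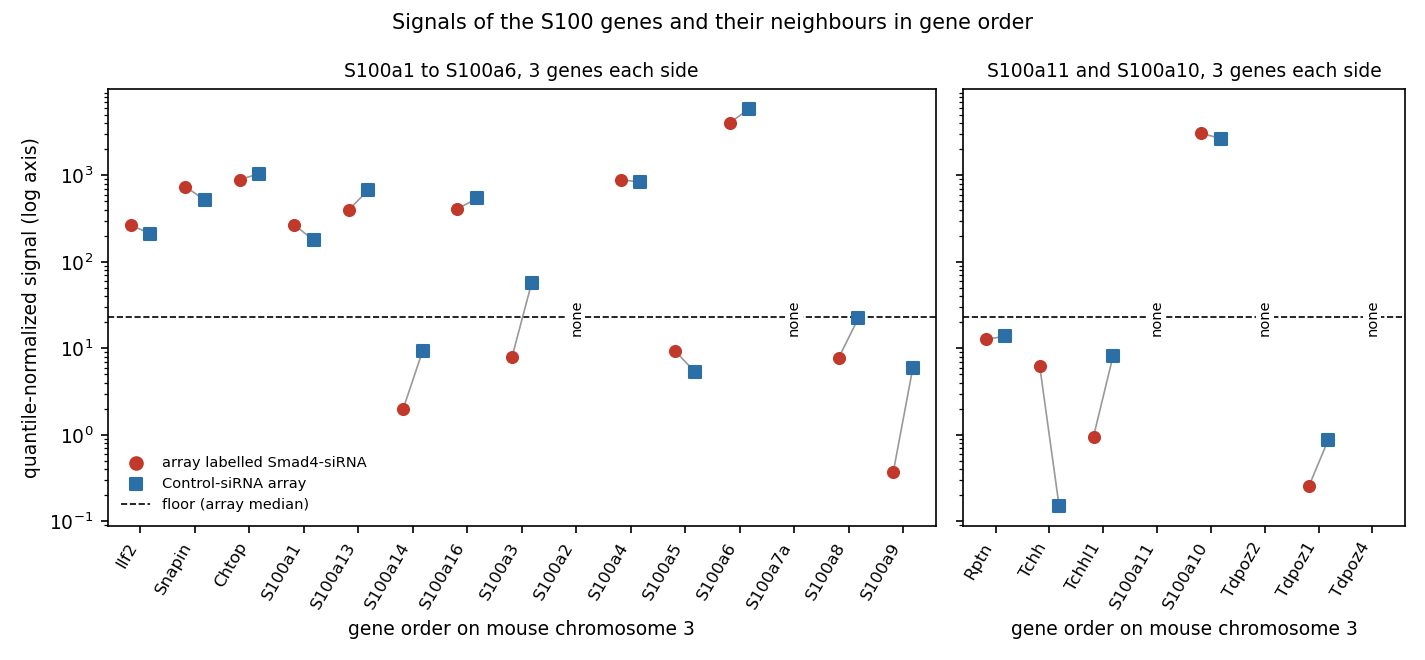
Quantile-normalized signal (log axis) of the genes in RefSeq order around the 2 S100 runs of chromosome 3, in the sample labelled Smad4-siRNA (red circles, left) and the Control-siRNA sample (blue squares, right). The dashed line is the floor of 22.8, and "none" marks a gene without a probe set of its own. S100a1, drawn by its brighter probe set, and S100a13, side by side, slope in opposite directions.

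Of the other S100 genes on a list of 10, 8 had a probe set of their own and 2 were measured on at least 1 array. These are S100a3 and S100a16, with the values above. S100b, an astrocyte marker, and S100g were under the floor on both arrays. Of the other annexin genes on a list of 8, 7 had a probe set of their own and 4 were measured. Anxa6, an annexin of endosomes and the cell cortex, had 1217 in the sample labelled Smad4-siRNA and 164 in the Control-siRNA sample, and was 7.42-fold higher in its brightest probe set. The 4 Anxa6 probe sets had log2 ratios of 2.89, 2.83, 2.21 and 0.88, all above 0. Anxa6 thus differed more than any of the 9 genes chosen here. Anxa4, a binder of epithelial membranes, had 981 in the sample labelled Smad4-siRNA and 693 in the Control-siRNA sample, but its probe sets had log2 ratios of 0.50, -0.05 and -0.52. Anxa7, linked to secretion, had 899 in the sample labelled Smad4-siRNA and 1113 in the Control-siRNA sample, a log2 ratio of -0.31. Anxa8 was measured only in the sample labelled Smad4-siRNA, with a signal of 23.6 that is barely above the floor. Its other probe set had 33.2 in the sample labelled Smad4-siRNA and 1.36, under the floor, in the Control-siRNA sample, that is, at least 1.46-fold higher. Together, the annexins measured had 2 genes at least 2-fold higher, 1 lower and 5 between, while the S100 genes measured had 0 higher, 1 lower and 6 between. Genes measured on at least 1 array, bounds included, were past 2-fold in 31.7% of 11581 cases.

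Genes whose proteins bind S100 proteins or annexins, or act with them, were followed on a list of 26, of which 15 were measured, all on both arrays. Of these, 2 were at least 2-fold higher, 1 was lower and 12 lay between, that is, 20.0% past 2-fold, against 27.7% of all genes measured on both arrays. Their median log2 ratio was 0.14, and -0.09 in the values as deposited. The plasminogen activators stood farthest from 0, in opposite directions. Plat, the tissue plasminogen activator that docks on the complex of S100a10 and Anxa2, had 945 in the sample labelled Smad4-siRNA and 77.6 in the Control-siRNA sample, and was 12.2-fold higher. Plau, urokinase, had 24.5, just above the floor, in the sample labelled Smad4-siRNA and 422 in the Control-siRNA sample, and was 17.2-fold lower. The other Plau probe set, under the floor in the sample labelled Smad4-siRNA, was at least 10.6-fold lower. Plg, which encodes plasminogen itself, was under the floor on both arrays. The transcripts of both activators thus differed by more than 10-fold while those of the docking pair, S100a10 and Anxa2, had log2 ratios of 0.21 and -0.32.

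Other measured partners differed less than the plasminogen activators. Hltf, which encodes a chromatin factor bound by S100a10 with Anxa2, had 490.2 in the sample labelled Smad4-siRNA and 212 in the Control-siRNA sample, a log2 ratio of 1.21. As deposited, this ratio of the brightest Hltf probe set was 0.91. A second Hltf probe set had a log2 ratio of 0.53. The third, under the floor in the Control-siRNA sample, was at least 1.26-fold higher. Tpm1, tropomyosin, had log2 ratios of 0.85 and 0.87 in its 2 brightest probe sets and of 2.32 in a dimmer one. Cacybp, the calcyclin-binding protein and thus a partner of S100a6, had 735 in the sample labelled Smad4-siRNA and 1448 in the Control-siRNA sample, a log2 ratio of -0.98. Cacybp and S100a6 thus both lay below 0, and Cacybp passed 2-fold in the values as deposited (-1.36). Mdm2, whose protein binds S100 proteins as p53 does, had a log2 ratio of -0.93, and of -1.28, past 2-fold, in the values as deposited. Myh9, the myosin heavy chain that S100a4 binds, had a log2 ratio of 0.14, and Ahnak, the giant scaffold bound by S100a10 and Anxa2, had -0.68. The receptor genes Ager, for S100 proteins, and Fpr2, for Anxa1, were under the floor on both arrays, as was Fgf1, the cargo of S100a13. Tlr4, a receptor for some S100 proteins, had a log2 ratio of -0.80.

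Membrane repair genes, which act with annexins at torn membranes, went both ways. Of 15 on the list, 12 were measured, all on both arrays, with 2 at least 2-fold higher, 3 lower and 7 between. This is 41.7% past 2-fold, against 27.7% of all genes measured on both arrays, and no test was made of the difference. Dysf, dysferlin, a calcium sensor of repair that binds annexins, had 132 in the sample labelled Smad4-siRNA and 389.7 in the Control-siRNA sample, and was 2.94-fold lower. Its relative Myof had a log2 ratio of -0.93, and of -1.29, past 2-fold, in the values as deposited. Ehd2, of caveolar necks, was 2.33-fold lower in its brightest probe set. Its other probe sets measured on both arrays had log2 ratios of -0.95, -0.92 and -0.80, inside 2-fold. Pdcd6ip, which recruits the ESCRT machinery, had log2 ratios of -1.62 in its brightest probe set and -0.97, -0.17 and 0.27 in others, and was at least 2.85-fold lower in another one, under the floor in the sample labelled Smad4-siRNA. The Pdcd6ip probe sets thus disagreed. The protease gene Capn1 was higher in both of its probe sets, by log2 ratios of 1.18 and 1.15. Cavin1, a coat protein of caveolae, had log2 ratios of 1.11, 0.91 and 0.29, and its brightest probe set had 0.75 in the values as deposited. Pdcd6, a calcium sensor and partner of Pdcd6ip, had a log2 ratio of 0.52. The list median was -0.13, but -0.50 in the values as deposited and 0.30 without suffixed probe sets.

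**Figure D4:**
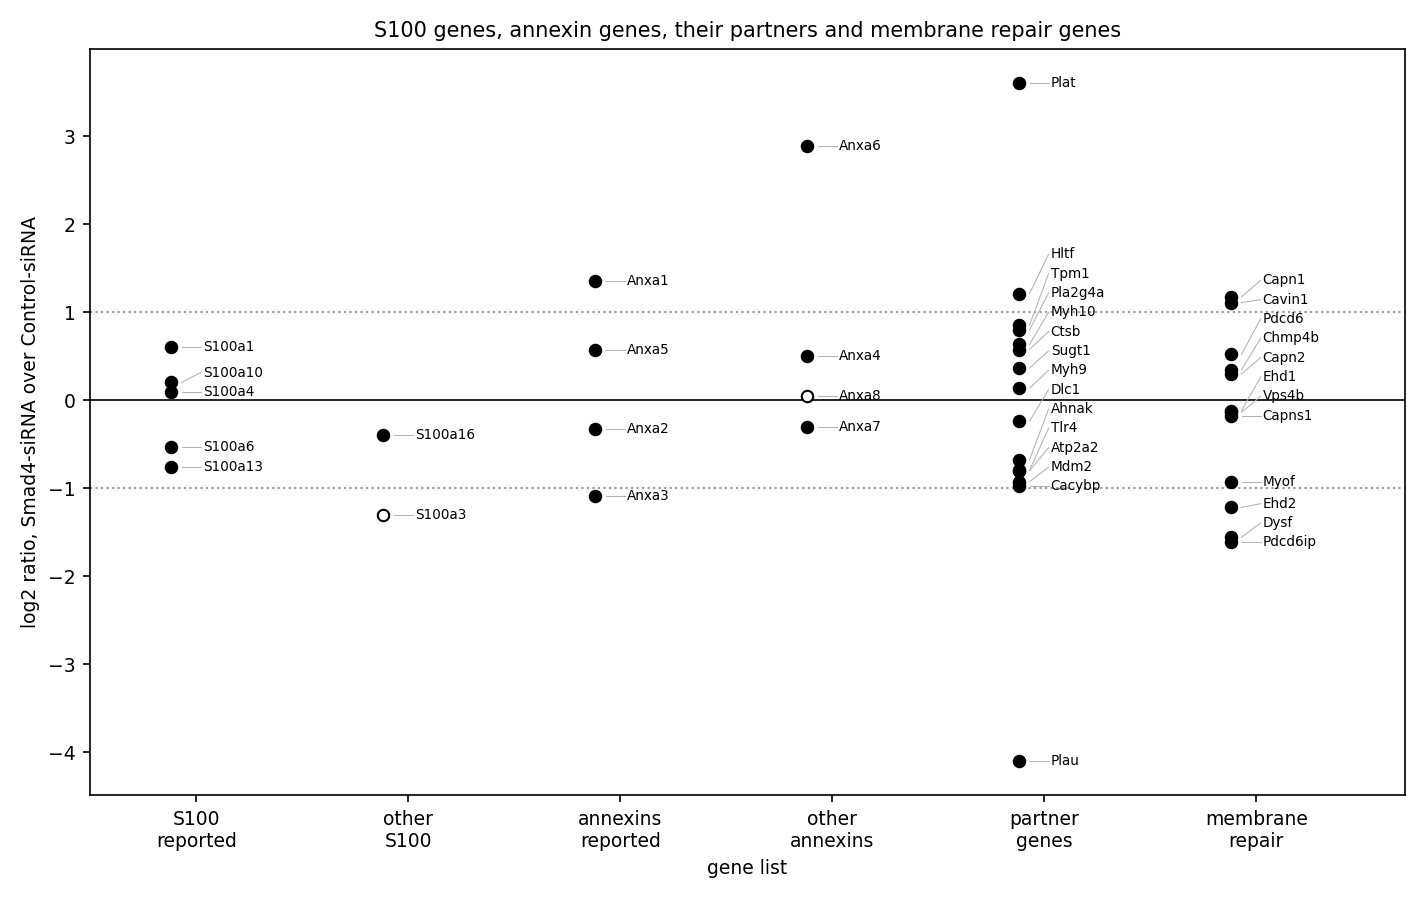
Log2 ratio, Smad4-siRNA over Control-siRNA, of each measured gene of 6 lists, by its brightest probe set. Filled points were measured on both arrays, open points on 1 array with the other side set to the floor, and dotted lines mark 2-fold. Plat, Anxa6, Plau, Pdcd6ip and Dysf lie farther from 0 than any of the 9 S100 and annexin genes chosen.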

How the data were processed

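The table deposited by the authors gives a MAS5 signal intensity per probe set, not on a log scale, per the submitters' processing notes. The sources used here give neither the MAS5 version nor its scaling target. Of 45101 probe sets, 64 controls were left out. The 2% trimmed mean was 114 in the sample labelled Smad4-siRNA and 137 in the Control-siRNA sample (-17.2%), so log2 signals were quantile normalized (pandas 2.3.3, numpy 2.4.6). The deposited medians went the other way, 24.8 in the sample labelled Smad4-siRNA and 21.0 in the Control-siRNA sample. The arrays thus differed in the shape of their distributions, and quantile normalization removes this difference too. Names came from the platform annotation, an old one, with symbols brought up to RefSeq through Entrez identifiers. They gave 1 gene to 34945 probe sets, several to 932 and none to 9160. In all, 18029 of 18193 genes matched RefSeq. The probe set of highest mean log2 signal stood for a gene. Where 1 side lay under the floor, the fold was taken against the floor and is written "at least". With both under it, no fold was taken. With 1 array per group no test was made, and the number of arrays limits precision.

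All chosen S100 and annexin genes and all measured relatives were named. Of the partner and repair lists, the 3 highest and 3 lowest were named, along with Smad4 and the genes beside the S100 runs. Myof, S100b, S100g, Myh9, Ahnak, Plg, Ager, Fpr2, Fgf1, Tlr4, Cd68, Ptprc, Xist, Eif2s3y and the genes of the closing part were named after their values were seen. So were Des, Rgs5, Myh11 and Cnn1. Members and lists were chosen with earlier results of these data known. Alternatives were the values as deposited, median centring, removal of a lowess trend (fraction 0.3), floors at the 25th or 75th percentile, a pseudocount of the 25th percentile, the median over probe sets, and leaving out suffixed probe sets. The steps were tested on simulated data.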

Additional observations from a re-analysis of the deposited data

How the results depend on the processing

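No paired analysis was possible because each group had 1 array. For the 9 genes, 69 values were recomputed under 8 alternatives. Of these, 67 moved by less than the SD of 0.47 between probe sets. The exceptions were Anxa1, at 2.03 with the median over probe sets, and S100a1, at 0.11 without suffixed probe sets. A floor cannot move the ratio of a gene measured on both arrays, and neither floor setting changed any of the 9 genes. Nor can a probe set rule move a gene with 1 unsuffixed probe set, such as S100a13. Part of the 67 was thus fixed in advance. S100a4 (-0.31) and S100a10 (-0.03) turned below 0 as deposited, S100a4 (-0.19) with median centring, and S100a10 with the median over probe sets (-0.11) and without suffixed ones (-0.15).

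The median of the 9 genes was -0.31 as deposited, -0.19 with median centring, -0.11 with the median over probe sets and -0.03 without suffixed ones. That of partner genes was -0.09 as deposited, -0.10 without suffixed probe sets and -0.13 with the 25th percentile as floor, and that of membrane repair genes was -0.38 with median centring.

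The genes at least 2-fold lower numbered 2 as deposited and with median centring, S100a13 joining Anxa3, and 0 with a lowess trend removed. Over all genes, a floor at the 25th percentile gave 1889 higher and 2164 lower, and one at the 75th gave 468 and 592. As deposited, 1023 were higher and 1957 lower, so that higher genes made up 34.3% of calls in place of 45.6%, and the median of measured genes was -0.33 in place of -0.15. Other S100 genes at least 2-fold lower numbered 0 with median centring or a floor at the 75th percentile and 2 with one at the 25th, where other annexins had 2 higher. Partner genes had 1 higher and 4 lower as deposited, and 3 lower with median centring or the median over probe sets. The last of these gave 3 partner genes higher. Membrane repair genes had 1 higher as deposited, with median centring, with a floor at the 75th percentile, with the median over probe sets and without suffixed probe sets, and 1 lower in the last 2 of these. Restricting all genes to those of at least 4 times the floor, chosen after seeing the data, gave 952 higher and 1062 lower. Signals near the floor, such as those of Anxa8 and Plau in the sample labelled Smad4-siRNA, limit what a ratio shows.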

Other observations

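Other calcium-binding families, on lists written after the S100 and annexin values were seen, were set beside them. EF-hand proteins of the secretory pathway were mostly above 0. Among the 9 with a signal, 5 passed 2-fold on the higher side, 0 on the lower and 4 lay between, with a median log2 ratio of 1.10, while 31.7% of all genes with a signal in at least 1 sample passed 2-fold either way. Rcn3, a chaperone of collagen-making cells, had 1074 in the sample labelled Smad4-siRNA and 2.69, under the floor, in the Control-siRNA sample, and was at least 47.2-fold higher. Its relative Rcn1 had 1404 in the sample labelled Smad4-siRNA and 245 in the Control-siRNA sample, a log2 ratio of 2.52. Calu, Nucb1 and the collagen-linked prolyl isomerase Fkbp9 had log2 ratios of 1.11, 1.10 and 1.28. As deposited, the ratios of Calu, Nucb1 and Fkbp9 were 0.83, 0.74 and 0.98, inside 2-fold. Fibroblast markers were higher on the same array (7 of 8 measured), and their part in these values was not tested.

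EF-hand proteins of the cytosol went both ways. Among 12 with a signal, 2 passed 2-fold on the higher side, 2 on the lower and 8 lay between, with a median log2 ratio of -0.02. This is 33.3%, close to the 31.7% of all genes with a signal. Plcd1, a phospholipase C, had 106 in the sample labelled Smad4-siRNA and 39.6 in the Control-siRNA sample, and was 2.67-fold higher. Gca, grancalcin, had 54.04 in the sample labelled Smad4-siRNA and 1.05, under the floor, in the Control-siRNA sample, and was at least 2.37-fold higher. Lcp1, the leukocyte plastin, had 7.58, under the floor, in the sample labelled Smad4-siRNA and 319.6 in the Control-siRNA sample, and was at least 14.03-fold lower. Of 6 microglia and leukocyte markers, 2 were measured. Cd68 had 35.2 in the sample labelled Smad4-siRNA and 820.3 in the Control-siRNA sample. Csf1r had 23.2, just above the floor, in the sample labelled Smad4-siRNA and 28.2 in the Control-siRNA sample, a log2 ratio of -0.28. Ptprc, which defines leukocytes, Aif1, Itgam and Cx3cr1 were under the floor on both arrays. The part of these markers in the Lcp1 value was not tested. Actn1, an actin crosslinker, was lower in each probe set, with log2 ratios of -1.48, -1.95 and -2.30. Calmodulin-dependent enzymes (7 measured) had 0 higher and 2 lower, and cytosolic C2-domain proteins (10 measured) had 1 higher and 2 lower, with medians of -0.20 and -0.03. The shares past 2-fold, 2 of 7 and 3 of 10, were close to 31.7% too.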
